A study of Mus musculus with 4 samples.

Results

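Cell cycle and DNA replication genes were described in regulatory T cells (Treg) and T-effector cells that had been cultured with or without TGFb and IL6. The 47 genes were taken by name, or by an older alias, from 27670 named genes on the array. They were 11 genes of G1 and the G1/S step, 14 genes of S phase, 19 genes of G2 and mitosis, and 3 inhibitors of cyclin-dependent kinases (CDKs). All 47 had a probe and could be tested, and 45 of them were well above background in all 26 channels. The lowest were Cdk2 and Mcm3, each well above background in 24 channels. The number of arrays limits the precision of what follows.

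The cells were mouse CD4+ cells of lymph node, stimulated for 4 days on plate-bound anti-CD3 at 1 µg/ml. IL2 at 100 units/ml was in every culture for 3 days. The first condition had IL2 alone (3 arrays), the second TGFb at 4 ng/ml (3 arrays), the third TGFb at 4 ng/ml and IL6 at 25 ng/ml (4 arrays) and the last IL6 at 25 ng/ml (3 arrays). Below, these are called the IL2, TGFb, TGFb + IL6 and IL6 arrays. Each array held a Treg and a T-effector sample in opposite dyes. Strain, genotype, age and the way Treg and T-effector cells were parted are not given in the labels used here. The labels do not say that the arrays came from separate cultures or animals, so the p-values measure the spread between arrays, which may be technical. In such bulk RNA, fewer cycling cells and less RNA of a gene per cycling cell cannot be told apart.

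T cells that are stimulated through their receptor with IL2 leave quiescence and divide. In G1, D-type cyclins with Cdk4 or Cdk6, and then cyclin E with Cdk2, release E2F transcription factors from the retinoblastoma protein. E2F factors turn on the genes that load the Mcm helicase on origins and make nucleotides. Genes of G2 and mitosis follow later, many of them through a CCAAT box and an element called CHR (cell cycle genes homology region) near the start of transcription. The inhibitors Cdkn1a (p21), Cdkn1b (p27) and Cdkn2c (p18) hold the cyclin-CDK complexes back. TGFb is known to arrest many cell types in G1, and in CD4 T cells it also induces Foxp3, which IL6 can prevent.

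RefSeq promoters, which reach from 250 bases before to 50 bases after a gene's start, were found for 40 of the 47 genes. They were searched on both strands for E2F words (TTTCCCGC, TTTCGCGC, TTTGCCGC or TTTGGCGC), for CHR words (TTTGAA or TTCGAA) and for CCAAT. The families were counted separately, so matches of different families could overlap. An E2F word was in a promoter of 6 of 13 S phase genes and of 1 of 15 mitotic genes, against 2.60% of all 27025 genes in the table. A CHR word and a CCAAT box were both present for 12 of 15 mitotic genes and for 2 of 13 S phase genes, against 8.61% of all genes. None of the 3 inhibitor genes held an E2F or a CHR word in these windows. Promoters of 6 genes on which the results below turn are shown, with matches in capitals, in GRCm38.p6 and on the gene's own strand. Cdk4 is at chr10:127063285-127063584 on the plus strand, Cdc6 at chr11:98907901-98908200 on the plus strand and Ccnb1 at chr13:100786437-100786736 on the minus strand. Ccnb2 is at chr9:70421505-70421804 on the minus strand, Top2a at chr11:99024140-99024439 on the minus strand and Kif11 at chr19:37376132-37376431 on the plus strand.
Cdk4: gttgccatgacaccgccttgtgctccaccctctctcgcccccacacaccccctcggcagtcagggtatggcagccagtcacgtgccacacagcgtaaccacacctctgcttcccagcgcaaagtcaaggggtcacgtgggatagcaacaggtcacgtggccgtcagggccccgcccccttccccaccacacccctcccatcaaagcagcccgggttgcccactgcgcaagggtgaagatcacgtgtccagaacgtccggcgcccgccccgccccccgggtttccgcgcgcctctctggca
Cdc6: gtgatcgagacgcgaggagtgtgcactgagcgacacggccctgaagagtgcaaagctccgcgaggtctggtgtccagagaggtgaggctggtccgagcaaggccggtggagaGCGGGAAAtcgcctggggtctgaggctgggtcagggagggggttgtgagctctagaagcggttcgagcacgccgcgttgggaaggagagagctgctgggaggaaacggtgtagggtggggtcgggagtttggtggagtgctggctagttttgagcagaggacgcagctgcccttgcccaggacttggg
Ccnb1: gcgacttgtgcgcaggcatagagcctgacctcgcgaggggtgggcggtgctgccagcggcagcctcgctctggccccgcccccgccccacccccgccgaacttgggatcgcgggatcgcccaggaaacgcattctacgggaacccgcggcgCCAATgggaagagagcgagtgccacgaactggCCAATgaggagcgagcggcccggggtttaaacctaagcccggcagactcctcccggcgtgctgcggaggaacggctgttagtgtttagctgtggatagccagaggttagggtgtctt
Ccnb2: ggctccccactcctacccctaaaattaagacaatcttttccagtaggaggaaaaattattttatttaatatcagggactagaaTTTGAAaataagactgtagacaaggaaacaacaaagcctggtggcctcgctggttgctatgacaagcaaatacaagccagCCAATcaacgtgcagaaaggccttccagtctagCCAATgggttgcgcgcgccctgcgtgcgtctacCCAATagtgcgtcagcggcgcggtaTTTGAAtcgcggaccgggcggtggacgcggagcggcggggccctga
Top2a: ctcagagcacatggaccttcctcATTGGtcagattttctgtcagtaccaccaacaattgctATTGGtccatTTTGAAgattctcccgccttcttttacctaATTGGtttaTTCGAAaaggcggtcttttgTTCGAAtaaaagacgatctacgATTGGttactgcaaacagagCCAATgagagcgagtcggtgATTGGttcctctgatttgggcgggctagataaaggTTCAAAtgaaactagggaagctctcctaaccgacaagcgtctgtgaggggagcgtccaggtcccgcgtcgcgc
Kif11: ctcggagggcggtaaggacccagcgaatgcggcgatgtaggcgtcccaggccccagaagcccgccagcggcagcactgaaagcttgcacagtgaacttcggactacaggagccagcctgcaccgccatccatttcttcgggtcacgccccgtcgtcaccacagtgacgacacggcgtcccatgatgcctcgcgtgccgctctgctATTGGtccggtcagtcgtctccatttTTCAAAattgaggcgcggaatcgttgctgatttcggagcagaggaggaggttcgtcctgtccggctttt
Of these windows, that of Cdc6 held 1 E2F word and no CCAAT box, and that of Cdk4 held no word of the 3 families. Ccnb2 held 2 CHR words and 3 CCAAT boxes, Top2a held 4 and 6, and Kif11 held 1 of each. Ccnb1 held 2 CCAAT boxes and no CHR word of the letters searched.

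Foxp3, the defining transcription factor of Treg cells, was higher in the Treg sample on 13 of 13 arrays, by a log2 ratio of 1.72 to 2.71. The T cell markers Cd3d, Cd3e and Cd3g were well above background in all channels, and Cd4 in all channels but 1. Cd8a and Cd8b1, which CD4+ cells should lack, were well above background in all channels too. The log2 ratio of Cd8a was -1.27 on IL2 arrays (limma adjusted p = 0.0452) and -0.87 on IL6 arrays, against 0.50 on TGFb and 0.77 on TGFb + IL6 arrays, so it moved with the ratio of the cell cycle genes given below. On IL2 arrays, 5 CD8 and NK cell markers summed to a log2 level of 10.4 to 11.6 in the Treg channel and of 11.5 to 11.9 in the other. On TGFb arrays the sums were 11.6 to 12.1 and 11.4 to 11.8. Of 5 B cell markers, Ighm was higher in Treg samples on 13 of 13 arrays (0.15 to 2.39), and the summed log2 level of the list on TGFb arrays lay at 13.1 to 13.3 for Treg and at 11.2 to 11.6 for T-effector cells. For Cd79a, a defining B cell gene, 3 Treg channels and 5 T-effector channels passed the background threshold. The part of such cells in the results below was not tested. Negative controls on slide B had a Cy3 signal of 118 to 123, where slides A, C, D and E had 3.59 to 25.4. Position explained 30.6% to 50.9% of the log-ratio variance on slide E. Slide B held only arrays with TGFb, and slides A and C only arrays without it. For the 47 genes, calls that ended without slide B or without slide E are named beside the gene.

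In fitted ratios of Treg over T-effector, cell cycle genes lay mostly below 0 without TGFb and mostly above 0 with it. Of the 47 genes, 13 on IL2 arrays and 12 on IL6 arrays had a fitted ratio above 0. On TGFb arrays 33 did, and on TGFb + IL6 arrays 31. Of all genes tested, 52.9%, 51.8%, 46.8% and 46.2% did in the same order. Single IL6 arrays differed, with 15, 1 and 8 of 19 mitotic genes above 0 on arrays 1, 2 and 3. Over all genes tested, the median ratio was -0.015 to 0.0168 in the 4 conditions. Few single genes passed the test, which was limma's moderated test with Benjamini-Hochberg adjustment over 19877 genes at 0.05. On IL2 arrays 1 of 47 genes was higher in Treg (7.42% of all genes) and 2 were lower (3.57% of all genes). On TGFb arrays 1 was higher (4.15% of all genes) and 0 were lower (1.83% of all genes). On IL6 arrays 0 were higher (3.76% of all genes) and 5, or 10.6%, were lower (2.09% of all genes). On TGFb + IL6 arrays 0 passed in limma (3.51% of all genes higher and 2.34% lower). At an unadjusted p under 0.05, 9 of 47 genes were higher there, where 9.85% of all genes were. Only 1 of 47 was lower, where 10.8% of all genes were. At the adjusted threshold, the share of lower genes on IL6 arrays was above that of all genes.

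**Figure D1:**
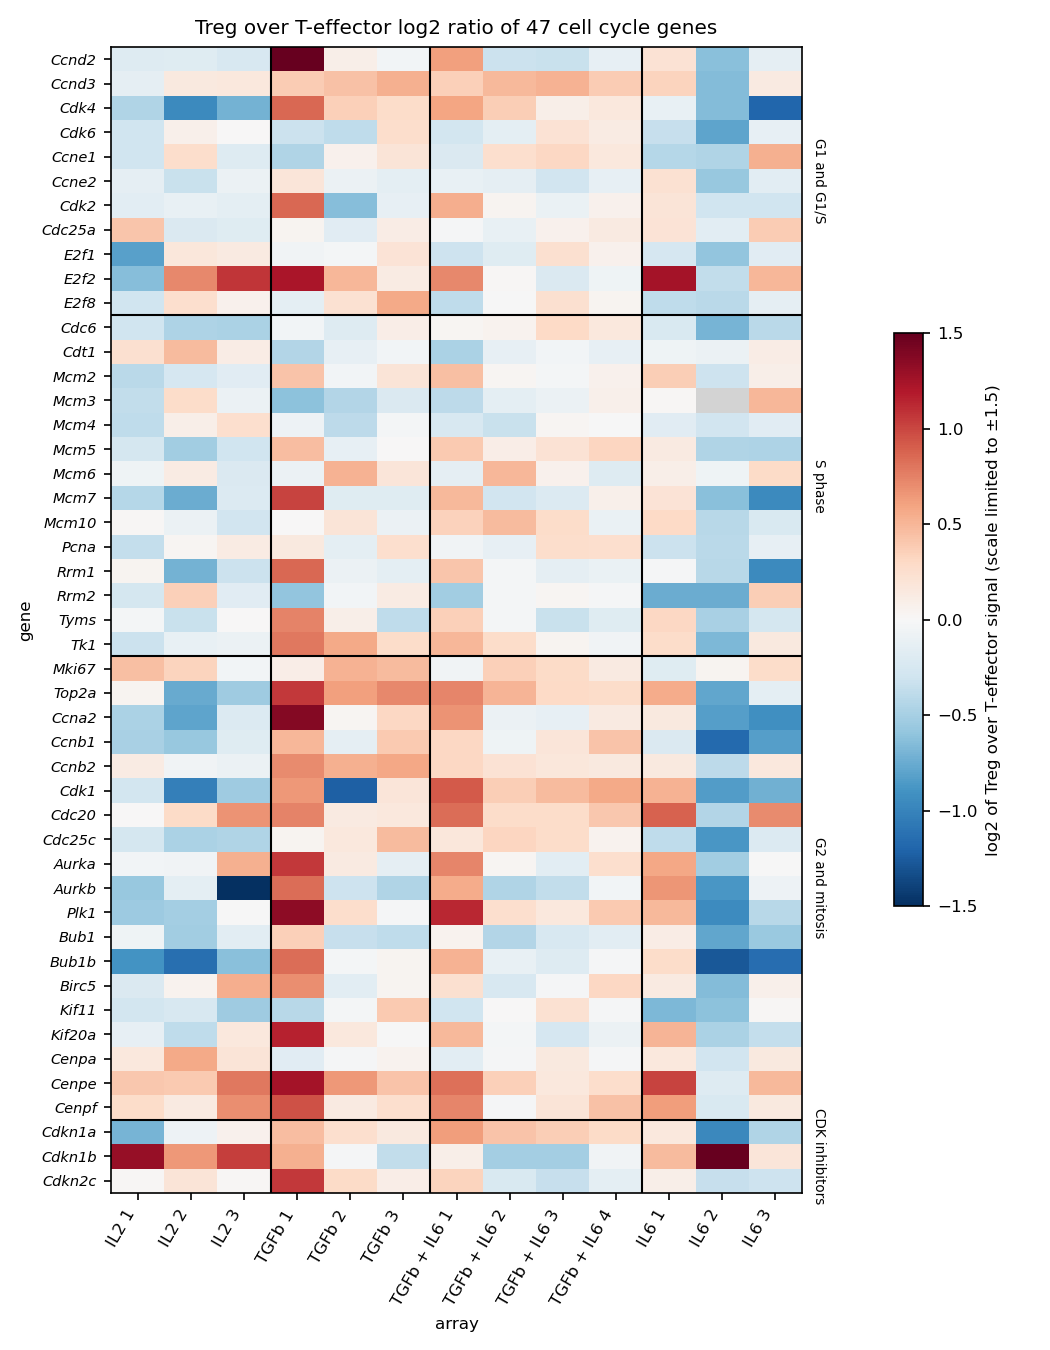
Log2 ratio of Treg over T-effector signal of 47 cell cycle genes (rows, grouped by role) on 13 arrays (columns, grouped by condition), on a colour scale limited to ±1.5, with a missing value in grey. Without TGFb, 13 genes on IL2 arrays and 12 on IL6 arrays had a fitted ratio above 0, against 33 with TGFb and 31 with TGFb + IL6.

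Role by role, the median ratio of the mitotic genes was -0.22 on IL2, 0.32 on TGFb, 0.21 on TGFb + IL6 and -0.17 on IL6 arrays. That of the S phase genes was -0.12, 0.09, 0.05 and -0.19 in the same order, but its sign turned on TGFb arrays with Agilent's processed signals (-0.0025), with the authors' table (-0.0022), without slide E (-0.05) and without TGFb array 1 (-0.05), and on TGFb + IL6 arrays with median centring (-0.04) and without slide E (-0.0025). That of the G1 genes was -0.15, 0.12, 0.02 and -0.18, and its sign turned on TGFb + IL6 arrays with slide as a block (-0.05) and without slide E (-0.01). On IL6 arrays the G1 and mitotic medians turned to 0.03 and 0.07 without IL6 array 2. The mitotic medians on IL2, TGFb and TGFb + IL6 arrays and the S phase medians on IL2 and IL6 arrays kept their sign under every alternative run. By array, the mitotic median was -0.24 to -0.09 on IL2 arrays and 0.13 to 0.75 on TGFb arrays, without overlap. It was 0.01 to 0.52 on TGFb + IL6 arrays. On IL6 arrays it was 0.28, -0.65 and -0.08 for arrays 1, 2 and 3, so the IL6 arrays overlapped every other condition. The S phase median was -0.28 to -0.10 on IL2 arrays and -0.10 to 0.07 on TGFb arrays, which overlapped. The highest mitotic median of each condition that had arrays on slide E lay on slide E.

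**Figure D2:**
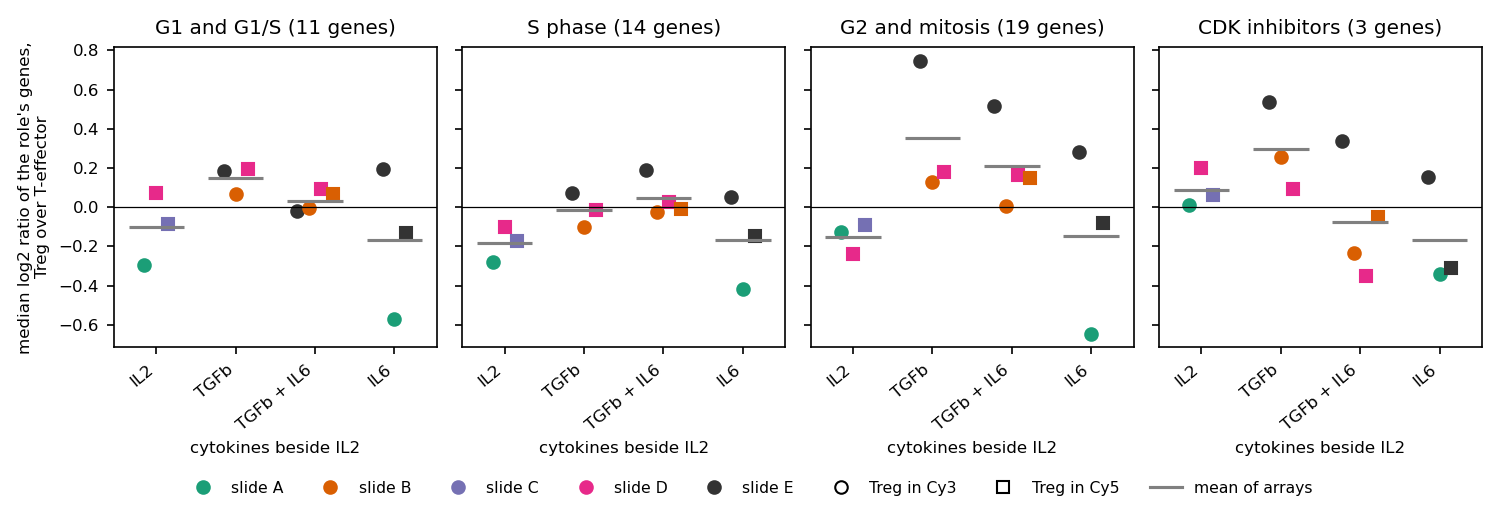
Median log2 ratio of Treg over T-effector signal of the genes of each role (y axis) on each of 13 arrays, by condition (x axis), with the slide as colour, the Treg dye as shape and the mean of the arrays as a grey line. Mitotic medians lay at -0.24 to -0.09 with IL2 and at 0.13 to 0.75 with TGFb, and the IL6 arrays spread from -0.65 to 0.28.

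These directions are relative to the loess curve of each array, which removes a trend with signal strength. Of the 47 genes, 38 were in the brightest 4970 genes by mean signal. With median centring in place of loess, the median of the 47 was -1.11 on IL2 and -1.14 on IL6 arrays, that of all genes -0.30 and -0.32, and that of the brightest 4970 genes -0.97 and -1.05. With loess, the brightest genes had -0.01 and -0.03. The directions on IL2 and IL6 arrays are thus those relative to genes of like signal. On TGFb arrays median centring gave a median of 0.33 for the 47, against 0.19 for the brightest genes, with 43 of 47 above 0. On TGFb + IL6 arrays it gave 0.02, with 25 of 47 above 0 in place of 31, against -0.06 for the brightest genes. Without IL6 array 2 the median of the 47 genes on IL6 arrays was 0.03 in place of -0.17, and without slide E, which leaves that array alone, it was -0.52. Without TGFb array 1, on slide E, the median on TGFb arrays was 0.06 in place of 0.19.

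Among G1 genes, Cdk4, the kinase partner of D-type cyclins, was lower in Treg without TGFb. Its Treg log2 signals were 10.37, 10.18 and 10.47 on IL2 arrays, 10.90, 10.87 and 10.70 on TGFb arrays, 10.68, 10.61, 10.29 and 10.53 on TGFb + IL6 arrays and 10.59, 10.23 and 9.91 on IL6 arrays. Its T-effector signals were 10.83, 11.13 and 11.17, then 10.04, 10.52 and 10.42, then 10.09, 10.24, 10.20 and 10.37, and last 10.71, 10.88 and 11.10. T-effector signals of Cdk4 were thus lower on all 7 arrays with TGFb than on all 6 without it, and the Treg channel moved the other way with overlap. The ratio was -0.63 ± 0.13 (SE) on IL2 arrays (limma adjusted p = 0.0128) and -0.73 ± 0.13 on IL6 arrays (limma adjusted p = 0.0105). With TGFb the ratio was 0.42 ± 0.13 and with TGFb + IL6 it was 0.30 ± 0.11, neither past the test. The ratio rose by 1.05 ± 0.19 from IL2 to TGFb (limma adjusted p = 0.0115) and by 1.03 ± 0.17 from IL6 to TGFb + IL6 (limma adjusted p = 0.0136). Within slide D the first difference was 1.24, and within slide E the second was 0.70. In T-effector cells alone Cdk4 fell by 0.64 with TGFb (SE 0.15, limma adjusted p = 0.0124) and by 0.71 with TGFb beside IL6 (SE 0.14, limma adjusted p = 0.00135). In Treg alone the differences were 0.41 and 0.32, not past the test. The IL2 ratio lost its call without IL2 array 1 (-0.59, limma adjusted p = 0.0839) or 2 (-0.58, limma adjusted p = 0.0942), and the IL6 ratio without IL6 array 3 (-0.55, limma adjusted p = 0.162) or without a dye term (-0.65, limma adjusted p = 0.0638). The rise from IL2 to TGFb lost it without IL2 array 1 (1.01, limma adjusted p = 0.0523) or TGFb array 3 (0.99, limma adjusted p = 0.101). The rise from IL6 to TGFb + IL6 lost it without TGFb + IL6 array 1 (1.00, limma adjusted p = 0.0569), IL6 array 3 (0.86, limma adjusted p = 0.076), slide B (1.08, limma adjusted p = 0.0993) or the dye term (0.95, limma adjusted p = 0.0581). The T-effector fall with TGFb held in 9 of 13 fits that each left out an array (-0.77 to -0.54), being lost without IL2 arrays 1 or 3 or TGFb arrays 1 or 3, and both T-effector falls were lost without slide E (-0.56, limma adjusted p = 0.0711, and -0.69, limma adjusted p = 0.063).

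**Figure D3:**
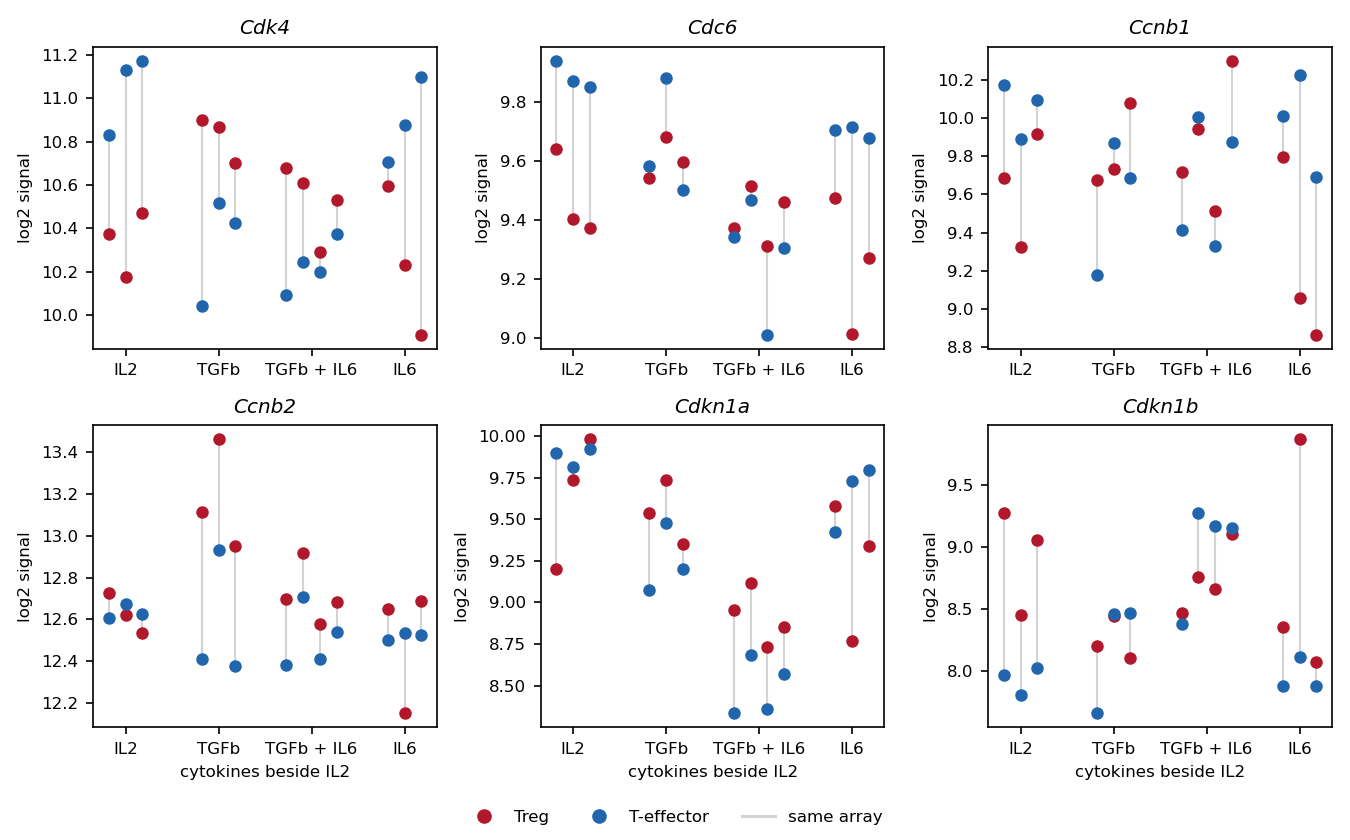
Log2 signal (y axis) in the Treg channel (red) and the T-effector channel (blue) of 6 cell cycle genes on 13 arrays by condition (x axis), with channels of an array joined in grey. T-effector signals of Cdk4 were 10.71 or more on the 6 arrays without TGFb and 10.52 or less on the 7 arrays with it.

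Cdk6, which pairs with the same cyclins, was lower in Treg on IL6 arrays (ratios -0.34, -0.79 and -0.12, fitted -0.35 ± 0.09, limma adjusted p = 0.0481). That call was lost under most alternatives, among them without slide B (-0.34, limma adjusted p = 0.121), without slide E (-0.58, limma adjusted p = 0.051) and with slide as a block (-0.35, limma adjusted p = 0.115), and held in 1 of 13 fits that each left out an array (-0.46 to -0.23), the one without IL6 array 1. Its other probes had -0.12 ± 0.16 and -0.15 ± 0.19 there. In T-effector cells Cdk6 was 13.43, 13.33 and 12.97 on IL6 arrays and 12.99, 12.79, 12.53 and 12.66 on TGFb + IL6 arrays, which overlapped. The fall was 0.47 (SE 0.11, limma adjusted p = 0.00689), and the other probes had -0.38 ± 0.17 and -0.51 ± 0.21. That fall held in 13 of 13 fits without an array (-0.53 to -0.41) and was lost with the mean of all probes (-0.40, limma adjusted p = 0.1), without slide B (-0.45, limma adjusted p = 0.0657) and without slide E (-0.53, limma adjusted p = 0.101).

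Ccnd3 (cyclin D3), the D-type cyclin that lymphocytes depend on, rose in Treg from 11.63, 10.33 and 11.27 on IL6 arrays to 11.87, 11.78, 11.91 and 11.70 on TGFb + IL6 arrays, without overlap. The difference was 0.73 ± 0.21 (limma adjusted p = 0.0284). Without IL6 array 2 it was 0.37 (limma adjusted p = 0.203), within slide E it was 0.24, and it was also lost without slide B (0.79, limma adjusted p = 0.0914), with Agilent's processed signals (0.65, limma adjusted p = 0.101) and with the spatial trend removed (0.70, limma adjusted p = 0.0848). The call held in 8 of 13 fits without an array (0.37 to 1.01), being lost also without IL6 array 3 and TGFb + IL6 arrays 1, 2 and 3. The ratio of Ccnd3 was above 0 on all 7 arrays with TGFb (0.36 to 0.54) and on 4 of 6 without (-0.65 to 0.34).

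No other G1 gene passed a test. Ccnd2 (cyclin D2) had a ratio of 1.74 on TGFb array 1, on slide E, and between -0.04 and 0.09 on the other TGFb arrays. E2f2, an activating E2F, spread from -0.64 to 1.25 over the 13 arrays. Ccne2 (cyclin E2) had a ratio above 0 on 2 of 13 arrays, and Ccne1 on 7. E2f1, E2f8 (a repressive E2F), Cdc25a (the phosphatase that frees Cdk2) and Cdk2 had ratios above 0 on 5, 6, 7 and 5 of 13 arrays.

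Among S phase genes, Cdc6, which loads the Mcm helicase and whose promoter held the E2F word shown, was lower in Treg without TGFb. Its ratios were -0.30, -0.47 and -0.48 on IL2 arrays and -0.23, -0.70 and -0.41 on IL6 arrays. They were -0.04, -0.20 and 0.10 on TGFb arrays and 0.03, 0.05, 0.30 and 0.15 on TGFb + IL6 arrays, all above every array without TGFb. The fitted ratio was -0.43 ± 0.10 on IL2 arrays (limma adjusted p = 0.0209) and -0.43 ± 0.10 on IL6 arrays (limma adjusted p = 0.0292). The ratio rose by 0.57 ± 0.13 from IL6 to TGFb + IL6 (limma adjusted p = 0.0397), a call that held in 4 of 13 fits without an array (0.45 to 0.69) and was lost without slide B (0.60, limma adjusted p = 0.173). Within slide E the difference was 0.26. In T-effector cells Cdc6 fell by 0.41 with TGFb beside IL6 (SE 0.12, limma adjusted p = 0.0281). Its other probe had -0.03 ± 0.13 on IL2 arrays, -0.19 ± 0.13 on IL6 arrays and -0.36 ± 0.19 in T-effector cells with TGFb beside IL6, and with the mean of both probes no Cdc6 call held (-0.23, -0.31 and -0.40, and 0.41 for the rise of the ratio). The IL2 ratio was also lost without slide B (-0.42, limma adjusted p = 0.0671) or IL2 arrays 2 or 3, the IL6 ratio without slide B (-0.44, limma adjusted p = 0.0849) or IL6 arrays 2 or 3, and the T-effector fall without slide E (-0.43, limma adjusted p = 0.378), TGFb + IL6 arrays 1, 3 or 4 or IL6 array 3. Over the fits without an array those 3 values were -0.55 to -0.38, -0.55 to -0.32 and -0.47 to -0.33. With slide as a block the IL2 ratio (-0.41, limma adjusted p = 0.051), the IL6 ratio (-0.49, limma adjusted p = 0.071) and the rise of the ratio (0.60, limma adjusted p = 0.076) lost their calls too.

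Mcm10, a replication initiation factor, fell in T-effector cells when IL6 was added to TGFb. Its T-effector log2 signals were 10.85, 10.81 and 10.65 on TGFb arrays and 10.15, 10.11, 10.02 and 10.09 on TGFb + IL6 arrays, without overlap. The fall was 0.69 (SE 0.14, limma adjusted p = 0.003) and kept its call in 13 of 13 fits without an array, with a range of -0.80 to -0.64. It was -0.63, -0.69 and -0.70 within slides D, E and B, and lost the call without slide B (-0.66, limma adjusted p = 0.0712). In Treg the difference of Mcm10 was -0.45, not past the test.

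Tk1 (thymidine kinase) fell in Treg when IL6 was added to TGFb, from 11.44, 11.53 and 11.19 to 10.81, 10.74, 10.54 and 10.64, without overlap. The fall was 0.69 (SE 0.19, limma adjusted p = 0.0329). With array numbers as a block it was -0.69 (limma adjusted p = 0.059). Without slide B, which leaves 2 arrays a group, it was -0.64 (limma adjusted p = 0.464). Within slides D, E and B it was -0.65, -0.63 and -0.79. The call held in 6 of 13 fits without an array (-0.80 to -0.63), being lost without any one of the TGFb or TGFb + IL6 arrays. In T-effector cells the difference of Tk1 was -0.35, not past the test.

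Mcm3, a subunit of the helicase, was lower in Treg with TGFb beside IL6 (-0.82 ± 0.16, limma adjusted p = 0.00178), with IL6 array 2 missing for this probe. Its other probe, measured on all arrays, had -0.14 ± 0.19, so the size of the fall depended on the probe. The mean of both probes gave 0.21 (limma adjusted p = 0.816), but on IL6 array 2 that mean held the other probe alone. Of the remaining Mcm genes, Mcm2, Mcm4, Mcm5, Mcm6 and Mcm7, none passed a test in any comparison. The same was true of Cdt1 (the loading partner of Cdc6), Pcna (the sliding clamp), Rrm1 and Rrm2 (ribonucleotide reductase) and Tyms (thymidylate synthase). The ratio of Cdt1 was above 0 on 0 of 7 arrays with TGFb and on 4 of 6 without. Mcm7 spread from -0.95 to 1.02 over the 13 arrays and Rrm1 from -0.96 to 0.86, each with its highest value on TGFb array 1.

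When IL6 was added to TGFb, 1 of 14 S phase genes lay above 0 in Treg, with a median of -0.20, where 45.5% of all genes lay above 0. In T-effector cells 3 of 14 lay above 0, with a median of -0.27, where 46.5% of all genes did, and the median of all genes was -0.02 in each cell type. Of these, Tk1 in Treg and Mcm10 in T-effector cells passed the test. Within slides D, E and B the S phase median was -0.28, -0.21 and -0.20 in Treg and -0.36, -0.12 and -0.28 in T-effector cells. Neither median changed sign under any alternative run.

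Among genes of G2 and mitosis, Ccnb2 (cyclin B2, with CHR and CCAAT words in the promoter shown) was higher in Treg with TGFb. Its ratios were 0.71, 0.53 and 0.58 on TGFb arrays, against 0.12, -0.05 and -0.09 on IL2 arrays, 0.32, 0.21, 0.17 and 0.15 on TGFb + IL6 arrays and 0.15, -0.39 and 0.16 on IL6 arrays. All 3 TGFb arrays lay above all other arrays. The fitted ratio on TGFb arrays was 0.60 ± 0.11 (limma adjusted p = 0.00742), and it rose by 0.60 ± 0.15 from IL2 to TGFb (limma adjusted p = 0.0432). In Treg alone Ccnb2 rose by 0.55 ± 0.15 with TGFb (limma adjusted p = 0.0323), from 12.73, 12.62 and 12.53 to 13.12, 13.46 and 12.95, and within slide D by 0.33. That rise was 0.40 without TGFb array 2 (limma adjusted p = 0.14) and 0.24 with slide as a block (limma adjusted p = 0.359), and it was also lost without slide B (0.40, limma adjusted p = 0.138), slide E (0.57, limma adjusted p = 0.0693), TGFb array 1 (0.58, limma adjusted p = 0.0709) or any one IL2 array (0.50 to 0.61). The TGFb ratio was lost without slide B (0.64, limma adjusted p = 0.0734) or without TGFb array 1 (0.55, limma adjusted p = 0.0605) or 3 (0.61, limma adjusted p = 0.11). The rise of the ratio held in 2 of 13 fits without an array (0.56 to 0.69) and was lost without slide B (0.64, limma adjusted p = 0.129) and with slide as a block (0.43, limma adjusted p = 0.159).

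Ccnb1 (cyclin B1), the other mitotic B-type cyclin, was lower in Treg on IL6 arrays, where its ratios were -0.21, -1.17 and -0.83. They were -0.48, -0.56 and -0.18 on IL2 arrays, 0.50, -0.13 and 0.39 on TGFb arrays and 0.31, -0.06, 0.19 and 0.43 on TGFb + IL6 arrays. No array with TGFb was as low as an array without it. The IL6 ratio was -0.72 ± 0.17 (limma adjusted p = 0.0348), and the other probes had -0.54 ± 0.11 and -0.48 ± 0.14. The ratio rose by 0.93 ± 0.23 from IL6 to TGFb + IL6 (limma adjusted p = 0.0455), or 0.52 within slide E. The IL6 call was lost without IL6 array 2 (-0.52, limma adjusted p = 0.165), IL6 array 3, slide B (-0.74, limma adjusted p = 0.065), TGFb array 3 or TGFb + IL6 arrays 1, 3 or 4, and with slide as a block (-0.83, limma adjusted p = 0.0542). The rise held in 2 of 13 fits without an array (0.73 to 1.21) and was lost without slide B (0.99, limma adjusted p = 0.155). Over the fits without an array the IL6 ratio was -0.996 to -0.52.

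Cdc25c, the phosphatase that activates Cdk1 at mitosis, was lower in Treg on IL6 arrays (-0.39, -0.87 and -0.20, fitted -0.47 ± 0.12, limma adjusted p = 0.0468). Its ratio was -0.26, -0.47 and -0.45 on IL2 arrays and above 0 on all 7 arrays with TGFb (0.04 to 0.48). It rose by 0.67 ± 0.16 from IL6 to TGFb + IL6 (limma adjusted p = 0.0437), or 0.56 within slide E. The IL6 call held in 1 of 13 fits without an array (-0.62 to -0.29) and the rise in 3 of 13 (0.50 to 0.82), and neither held without slide B (-0.46, limma adjusted p = 0.113, and 0.68, limma adjusted p = 0.186) or with slide as a block (-0.51, limma adjusted p = 0.116, and 0.65, limma adjusted p = 0.112). The other Cdc25c probe had -0.22 ± 0.14 on IL6 arrays.

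Top2a (topoisomerase II alpha), which untangles sister chromatids, had ratios of 1.06, 0.61 and 0.72 on TGFb arrays and 0.05, -0.75 and -0.53 on IL2 arrays. The rise was 1.11 ± 0.29 (limma adjusted p = 0.046), or 1.47 within slide D. It held in 2 of 13 fits without an array (1.00 to 1.31), and was lost without slide B (1.24, limma adjusted p = 0.116) and with the mean of its probes (0.86, limma adjusted p = 0.103), and with slide as a block (0.88, limma adjusted p = 0.165). Its other probes had ratios on TGFb arrays of -0.02 ± 0.14 and 0.81 ± 0.35, and so disagreed.

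Kif11, the motor that separates spindle poles, was lower with TGFb + IL6 than with TGFb in both cell types and than with IL6 in T-effector cells. In Treg its log2 signals were 8.41, 8.40 and 8.67 on TGFb arrays and 7.88, 8.07, 7.92 and 8.07 on TGFb + IL6 arrays. In T-effector cells they were 8.83, 8.44 and 8.28 on TGFb arrays, 8.19, 8.07, 7.69 and 8.09 on TGFb + IL6 arrays and 8.75, 8.81 and 8.32 on IL6 arrays. The TGFb + IL6 arrays lay below the TGFb arrays in both cell types and below the IL6 arrays in T-effector cells, while the T-effector signals on TGFb and IL6 arrays overlapped. The falls were 0.54 (limma adjusted p = 0.0305), 0.48 (limma adjusted p = 0.0495) and 0.59 (limma adjusted p = 0.0106), each with SE 0.15. The other probes gave -0.12 and -0.17 in Treg, 0.01 and -0.18 in T-effector cells against TGFb, and -0.27 and -0.32 in T-effector cells against IL6. With the mean of all Kif11 probes no call held (-0.27, -0.21 and -0.37). Without slide E none held either (-0.53, -0.40 and -0.82), and without slide B the first 2 did not (-0.64 and -0.62). With array numbers as a block the fall in Treg was -0.54 (limma adjusted p = 0.05). The calls held in 7, 3 and 11 of 13 fits without an array, with ranges of -0.60 to -0.49, -0.56 to -0.35 and -0.71 to -0.51. Each TGFb array and TGFb + IL6 arrays 1, 3 and 4 ended the call in Treg, and IL6 arrays 1 and 2 ended the T-effector call against IL6.

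No other mitotic gene passed a test. Cdc20, which activates the anaphase-promoting complex, and Cenpe, a kinetochore motor, had ratios above 0 on 12 of 13 arrays each, and the other Cenpe probes had -0.39 ± 0.16 and 0.20 ± 0.16 on IL2 arrays. Mki67, the proliferation marker Ki-67, was above 0 on 10 of 13 arrays, with ratios between -0.18 and 0.52. Cdk1 spread from -1.22 to 0.92, and its other probe from a fitted -0.16 to 0.00 over the 4 conditions. Plk1 and Aurka (mitotic kinases) were above 0 on 6 and 5 of 7 arrays with TGFb and on 1 and 2 of 6 without. Aurkb, Bub1 and Bub1b (chromosomal passenger and checkpoint kinases) were above 0 on 3, 3 and 4 of 13 arrays. Ccna2 (cyclin A2), Kif20a, Birc5 (survivin), Cenpa and Cenpf (centromere proteins) had ratios above 0 on 6, 5, 8, 7 and 11 of 13 arrays.

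The inhibitors moved apart from each other. Cdkn1a (p21), an inhibitor of CDK2 complexes and target of p53, was lower in T-effector cells with TGFb + IL6. Its T-effector log2 signals were 9.90, 9.81 and 9.92 on IL2 arrays, 9.07, 9.48 and 9.20 on TGFb arrays, 8.33, 8.68, 8.36 and 8.57 on TGFb + IL6 arrays and 9.43, 9.73 and 9.79 on IL6 arrays. The TGFb + IL6 arrays lay below all others. The fall was 1.16 from IL6 (SE 0.20, limma adjusted p = 0.000521) and 0.76 from TGFb (SE 0.20, limma adjusted p = 0.0238). The first kept its call in 13 of 13 fits without an array (-1.28 to -1.08) and lost it without slide E (-1.13, limma adjusted p = 0.0535), and within slide E it was -1.09. The second was -0.84, -0.74 and -0.80 within slides D, E and B and held in 8 of 13 fits (-0.85 to -0.65), being lost without TGFb arrays 1, 2 or 3, TGFb + IL6 arrays 1 or 3, slide B (-0.79, limma adjusted p = 0.203) or slide E (-0.79, limma adjusted p = 0.0853). In Treg the differences of Cdkn1a were -0.32 and -0.63, neither past the test.

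Cdkn1b (p27), which restrains CDK2 in quiescent T cells, rose in T-effector cells with TGFb beside IL6, from 7.88, 8.11 and 7.88 to 8.38, 9.27, 9.17 and 9.15, without overlap. The rise was 1.00 ± 0.30 (limma adjusted p = 0.0375), or 0.50 within slide E. On IL2 arrays Cdkn1b was higher in Treg, with ratios of 1.30, 0.65 and 1.04 (fitted 1.07 ± 0.23, limma adjusted p = 0.0149). The other Cdkn1b probes had -0.10 ± 0.12 and -0.13 ± 0.08 on IL2 arrays, and 0.39 ± 0.16 and -0.18 ± 0.10 in T-effector cells with TGFb beside IL6, so the probes opposed each other in sign. Neither call held with the mean of the probes (0.28 and 0.44). The IL2 ratio was also lost without any one of the IL2 arrays (0.97 to 1.17), and the T-effector rise held in 5 of 13 fits without an array (0.84 to 1.17) and in neither fit without slide B (0.76) or slide E (1.03). Cdkn2c (p18), an inhibitor of CDK4 and CDK6, passed no test, with ratios of 0.10 to 1.06 on TGFb arrays and -0.35 to 0.34 on TGFb + IL6 arrays.

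Counted over all 47 genes, the cytokine differences within each cell type were few. With TGFb, 1 gene rose in Treg (3.50% of all genes) and 0 fell (4.05% of all genes), and in T-effector cells 0 rose (1.94% of all genes) and 1 fell (2.34% of all genes). With TGFb beside IL6, 1 gene rose in Treg (4.61% of all genes) and 1 fell (5.01% of all genes). In T-effector cells 1 rose (5.06% of all genes) and 5, or 10.6%, fell (5.87% of all genes), the largest number of the 8 comparisons. With IL6 beside TGFb, 0 rose in Treg (2.78% of all genes) and 2 fell (2.61% of all genes). In T-effector cells 0 rose (4.06% of all genes) and 3 fell (3.15% of all genes). With IL6 alone none passed in limma, in Treg (0.342% of all genes rose and 0.493% fell) or in T-effector cells (0.382% and 0.402%). At an unadjusted p under 0.05 the IL6 counts were 3 up and 3 down in Treg, against 4.21% and 4.33% of all genes, and 1 up and 0 down in T-effector cells, against 2.36% and 2.36%. Most of these shares lay near those of all genes, so the counts alone do not set the 47 genes apart. These comparisons share arrays, since each group of arrays serves in 2 of them in each cell type and Treg and T-effector samples share every array.

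**Figure D4:**
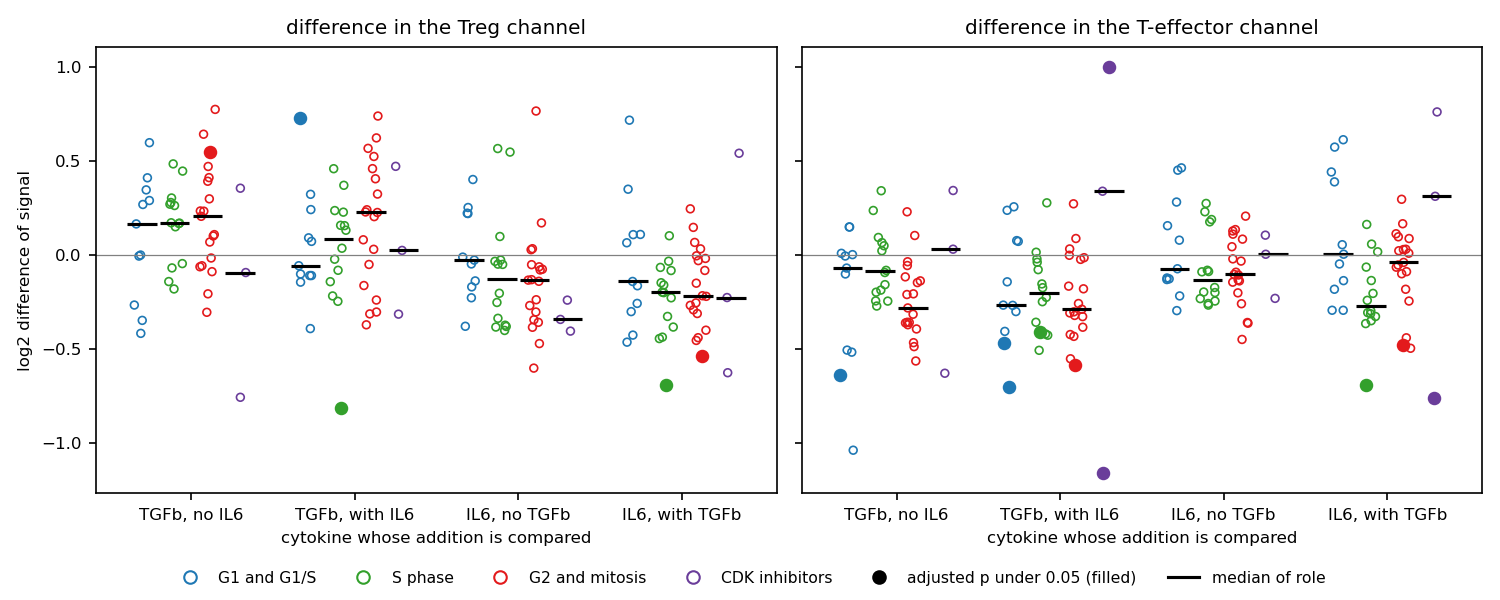
Log2 difference of signal (y axis) on adding TGFb or IL6 (x axis) in the Treg channel (left) and the T-effector channel (right), with 1 point per gene coloured by role, filled where the adjusted p was under 0.05, and the median of each role as a black line. The most filled points, 6, are in T-effector cells with TGFb beside IL6, where 36 of 47 genes lay below 0.

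In T-effector cells with TGFb beside IL6, 36 of 47 genes lay below 0, with medians of -0.27 for G1, -0.20 for S phase and -0.29 for mitotic genes. Within slide E, 11 of 47 lay above 0 in that comparison, against 49.5% of all genes. In Treg, with IL6 beside TGFb, 36 of 47 lay below 0 too, with medians of -0.14, -0.20 and -0.22. Of all genes, 45.5% lay above 0 there. The T-effector medians kept their sign under every alternative run. The G1 median in Treg did not, being 0.08 without slide E and 0.06 without TGFb array 1. Within slides D, E and B the mitotic median in Treg with IL6 beside TGFb was -0.33, -0.19 and -0.20.

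For the difference of the ratio between conditions, 3 of 47 genes passed for TGFb against IL2, or 6.38% (5.87% of all genes), and 4 for TGFb + IL6 against IL6, or 8.51% (4.00% of all genes). All 7 differences were rises with TGFb. At an unadjusted p under 0.05, 16 of 47 genes rose and 2 of 47 fell for TGFb against IL2, where all genes had 10.1% and 13.8%. For TGFb + IL6 against IL6, 16 rose and 2 fell too, where all genes had 9.19% and 12.4%. Apart from those of Cdk4, the calls each held in 2 to 4 of 13 fits without an array. Without slide B the differences of the ratio had 1 call. For IL6 against IL2 none passed in limma (0% of all genes), and for TGFb + IL6 against TGFb none passed in limma (0.292% of all genes). At an unadjusted p under 0.05 there were 1 up and 0 down for IL6 against IL2, where all genes had 1.78% and 1.66%. For TGFb + IL6 against TGFb there were 0 up and 3 down, where all genes had 1.84% and 3.34%. Across the 13 arrays, 5 genes, or 10.6%, had ratios on the 7 arrays with TGFb that all lay above those on the 6 arrays without it, against 2.09% of all genes. They were Ccnb1, Cdk4, Cdc6, Ccnd3 and Cdc25c. In 0 genes did all ratios with TGFb lie below those without, against 3.61% of all genes. These ratios were not adjusted for dye or slide. For arrays on slides A, B and C, TGFb and slide cannot be told apart.

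Other genes of the same pathway, listed apart from the 47, were measured too. Their calls were not followed in other probes, without single arrays or slides, or under other processing. Of 42 other S phase genes, 2 lay above 0 in Treg when IL6 was added to TGFb (median -0.30), against 45.5% of all genes. Of the 42, 8 passed as lower, against 2.61% of all genes, and 0 as higher, against 2.78%. Those lower included Chaf1b, a histone chaperone of replication (-1.06), and Pola1, a subunit of DNA polymerase alpha (-0.84). In T-effector cells 2 of 42 lay above 0 (median -0.33), and 6 passed as lower (3.15% of all genes), led by Hells, a chromatin remodeller (-0.70), and the replication factor Gins1 (-0.65). With TGFb beside IL6, 1 of 42 lay above 0 in T-effector cells (median -0.36), and 7 passed as lower (5.87% of all genes), led by Pola1 (-0.74) and Gins1 (-0.72). In Treg over T-effector, 6 of 42 lay above 0 on IL2 arrays, with 6 lower past the test (3.57% of all genes), and 3 of 42 on IL6 arrays, with 4 lower (2.09% of all genes). On TGFb and TGFb + IL6 arrays 24 and 25 lay above 0, and 3 and 2 passed as lower (1.83% and 2.34% of all genes), Hells among them (-0.70 and -0.53). With TGFb against IL2, 4 of the 42 rose in Treg (3.50% of all genes), led by the flap endonuclease Fen1 (0.71) and Rpa1 of the single-strand binding complex (0.70).

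Of 49 other mitotic genes, 41 lay above 0 in Treg over T-effector on TGFb arrays (median 0.22), of which Ube2c, a ubiquitin-conjugating enzyme of anaphase, passed as higher (0.52), against 4.15% of all genes. On IL2 arrays 12 lay above 0 (median -0.14), and 3 passed as higher (7.42% of all genes) and 2 as lower (3.57% of all genes), with Cdca2 (1.01) and Smc4 (0.59) the highest of those. On IL6 arrays 13 lay above 0, and 6 passed as lower (2.09% of all genes), led by Racgap1, a cytokinesis factor (-0.63), and the checkpoint gene Mad2l1 (-0.50), while Smc4, a condensin subunit, passed as higher (0.61), against 3.76% of all genes. In T-effector cells with TGFb beside IL6, 7 lay above 0 (median -0.30), and 4 passed as lower (5.87% of all genes), among them Aspm (-0.55) and Cdca8 (-0.54).

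A further list held 21 genes of growth inhibition and quiescence, most of them not CDK inhibitors. Of these, 5 rose in Treg (2.78% of all genes) and 6 in T-effector cells (4.06% of all genes) when IL6 was added to TGFb. None fell past limma's test (2.61% and 3.15% of all genes), and 2 and 1 lay below 0 at an unadjusted p under 0.05. Cdkn2d (p19), an inhibitor of CDK4 and CDK6, rose by 1.56 in Treg and by 1.63 in T-effector cells. Btg2, an antiproliferative factor, rose by 0.84 in Treg, and Klf2, a factor of quiescent T cells, rose by 2.25 in T-effector cells. With TGFb beside IL6, 6 rose in T-effector cells (5.06% of all genes), led by Klf2 (2.49) and Cdkn2d (0.98), and Ccng1, a p53 target like Cdkn1a, fell by 0.60. Of 20 other G1 genes, 3 rose in each cell type when IL6 was added to TGFb (2.78% of all genes in Treg and 4.06% in T-effector cells). They were Fbxw7, which marks cyclin E for breakdown (1.07 in Treg and 1.29 in T-effector cells), and the pocket proteins Rbl2 (0.69 in Treg) and Rb1 (0.59 in T-effector cells), which bind E2F factors.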

How the data were processed

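Treg and T-effector RNA was labelled in opposite dyes on 13 Agilent arrays with 5 slides, and scanned with Feature Extraction 9.5.1.1 per the file headers. The deposited files hold spot intensity as mean and background signals. The files also hold a log10 ratio per spot, made by Agilent's software per the file headers, which was only described. The authors' deposited value table holds log2 ratios of Treg over T-effector whose scale and centring are unknown. Its column medians were -0.08 (IL2), -0.05 (TGFb), -0.02 (TGFb + IL6) and -0.04 (IL6), and it was an alternative.

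Spots were corrected by normexp with an offset of 50, normalized by loess within arrays and averaged per probe with limma 3.58.1 in R 4.3.3. Of 41174 probes, 28894 were kept because 3 or more of their 26 channels passed the background threshold. The probe with the highest mean signal stood for its gene, and other probes are given where they bear on a call. Ratios were fitted with a dye term for 4 conditions, and single channels after Aquantile with an intraspot correlation of 0.447. The Benjamini-Hochberg adjustment ran across every gene tested, with a threshold of 0.05.

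The 47 members, the other lists and the tests were chosen with earlier results of these data known. Other genes were named as at most 2 rises and 2 falls for each list and comparison. Array numbers of TGFb and TGFb + IL6 were taken as 3 pairs only in the alternative with array numbers as a block. The reported tests did not use the pairs. Deviations of same-numbered arrays correlated at 0.54 to 0.76 for the ratio, 0.40 to 0.70 for Treg and 0.28 to 0.85 for T-effector cells. Each pair also shared its slide and its Treg dye, so a replicate cannot be told apart from a slide here.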

Additional observations from a re-analysis of the deposited data

Results flagged for a closer look

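Over the 4 TGFb + IL6 arrays, 59 sets of values (the ratios of 47 genes, and the role medians) were looked at for an array far from the rest, and 2 were found, where chance gives about 5 percent. On TGFb + IL6 array 3 the ratio of Ccne2 was -0.289, away from the other 3 arrays of its group. On TGFb + IL6 array 1 the ratio of Rrm2 was -0.526, away from the other 3.

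The Treg over T-effector ratio differed between conditions, by limma's test of the difference, for the following genes. From IL2 to TGFb the difference was 1.05 for Cdk4, 1.11 for Top2a and 0.60 for Ccnb2. From IL6 to TGFb + IL6 it was 0.93 for Ccnb1, 1.03 for Cdk4, 0.57 for Cdc6 and 0.67 for Cdc25c.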

How the results depend on the processing

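Counts of the 47 genes past the test depended on the processing, and the cause was not tested. The counts reported for the ratio on IL2, TGFb, TGFb + IL6 and IL6 arrays were 3, 1, 0 and 5. They became 14, 9, 2 and 12 with Agilent's processed signals, 15, 11, 5 and 13 with the spatial trend removed, 43, 0, 0 and 44 with median centring, 7, 3, 0 and 1 with slide as a block, 13, 5, 1 and 13 without slide E and 2, 0, 0 and 1 without slide B. The IL2 count was 1 with normexp fitted on all spots and 5 with the strict filter on dim probes. The TGFb count was 2 with no dye term, with either other filter on dim probes and with the mean of all probes, and the IL6 count was 3 with no dye term and 2 with the mean of all probes. The 4 differences of the ratio together had 7 calls, against 19, 28, 78, 18 and 1 with Agilent's signals, the spatial trend removed, median centring, without slide E and without slide B.

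In Treg, TGFb against IL2 had 1 call, and 4 with Agilent's signals, 2 with median centring, 2 with slide as a block, 3 with the spatial trend removed and 0 without slide B. TGFb + IL6 against IL6 had 2 calls, 6 with slide as a block, and 1 with Agilent's signals, with the spatial trend removed, with the mean of all probes and without slide B. TGFb + IL6 against TGFb had 2 calls, 12 with slide as a block, and 1 with normexp on all spots, with median centring, without slide B and without slide E. With array numbers as a block that comparison had 1 call in Treg, 4 in T-effector cells and 0 for the difference of the ratio. In T-effector cells, TGFb against IL2 had 1 call, and 2 with slide as a block or the spatial trend removed. TGFb + IL6 against IL6 had 6 calls, 12 with slide as a block, 2 with the mean of all probes and 0 without slide E. TGFb + IL6 against TGFb had 3 calls, 12 with slide as a block, 0 without slide B and 1 without slide E.

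Leaving out each array in turn gave 0 to 6, 0 to 6, 0 to 2 and 0 to 8 calls for the ratios, 1 to 18 for their differences, 0 to 4, 1 to 6, 0 to 1 and 0 to 5 in Treg and 0 to 1, 4 to 6, 0 to 0 and 1 to 4 in T-effector cells (TGFb against IL2, TGFb + IL6 against IL6, IL6 against IL2, TGFb + IL6 against TGFb). Of 361 values of called genes under other settings, 277 kept their call, 83 lost it and 1 reversed, Mcm3 in Treg at 0.21 with the mean of its probes. Of 403 values without an array, 154 lost it, 0 reversed and the others kept it. Slides B and E were left out after the data had been seen.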
